A study of Caenorhabditis elegans with 11 samples.

Results

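The levels of antisense small RNA and of mRNA in the normal adult gonad of Caenorhabditis elegans were compared gene by gene in the wild-type strain N2. The members are the 5 wild-type libraries among the 11 libraries of the series: small RNA of replicates 1, 2 and 3, and mRNA of replicates 2 and 3. RNA was taken from gonads of day-one adults, with no treatment given in the labels, and each replicate number is also a batch number. The other 6 libraries, from day-one adult gonads of the cup-4(ok837) strain RB950, enter only the last comparison. The gene cup-4 is known for its role in endocytosis by coelomocytes. Only small RNA reads lying antisense to a gene were counted for it. The mRNA samples are labelled poly(A) RNA.

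In the worm germline, RNA-dependent RNA polymerases copy mRNA templates into small RNAs that are antisense to the gene. Argonaute proteins carry these small RNAs: those of the WAGO class silence genes and repeats, whereas CSR-1 is loaded with small RNAs against genes that the germline expresses. Much of this takes place in germ granules, the perinuclear bodies where transcripts leaving the nucleus meet polymerases, mutator proteins and Argonautes.

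The small RNA libraries held 18632432, 39310540 and 25396271 reads on genes, and the mRNA libraries 22339053 and 26089822. Levels are counts per 1000000 gene-assigned reads of a library (CPM), and a value after ± is the SD over the 3 small RNA libraries unless another n is given. Where genes are compared with each other they are CPM per kilobase of gene span, introns included (CPM per kb). One read equalled 0.0254 to 0.0537 CPM in small RNA and 0.0383 to 0.0448 CPM in mRNA. Of 19620 protein-coding genes, 18890 had a read in at least 1 wild-type library. Across these genes the 3 small RNA libraries ranked genes alike, with Spearman correlations of 0.955 to 0.965, and the 2 mRNA libraries correlated at 0.943. Among 6152 genes with at least 10 CPM of antisense small RNA, the median SD over mean of the 3 libraries was 0.111. Among 5739 genes with at least 10 CPM of mRNA, the median difference between the 2 libraries was 0.37 on the log2 scale.

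Libraries of the same kind were not equal. Small RNA replicate 3 had 5.12% of its counts on ribosomal RNA genes, against 0.484% and 0.921% in replicates 1 and 2. In mRNA, replicate 2 had more RNA of several somatic marker lists, and of sperm genes, than replicate 3. The 156 cuticle collagens of a marker list summed to 26108 CPM in replicate 2 and 5498 CPM in replicate 3, 25 intestine genes to 8550.4 and 4698 CPM, and 25 muscle and gonadal sheath genes to 5696 and 3295 CPM. The 31 major sperm protein genes summed to 1208 CPM in replicate 2 and 65.96 CPM in replicate 3. The 5 genes that differed most between the mRNA libraries among the 500 most abundant were col-98, col-80, cpr-6, col-119 and col-93, all higher in replicate 2, by 2.44 to 2.63 on the log2 scale. The tissue is labelled Germline. Germline lists described further on had medians above those of all protein-coding genes in both assays, and RNA of somatic tissues was present beside them. In whole-gonad RNA, fewer cells of a type and less RNA per cell cannot be told apart.

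Protein-coding genes took 73.2 ± 5.23% of the antisense small RNA counts (SD, n = 3) and 92.5 ± 0.808% of the mRNA counts (SD, n = 2). The antisense reads outside protein-coding genes lay mostly on 6705 genes annotated as ncRNA, with 11.1 ± 3.27%, and on 2887 gene rows without a symbol, with 9.99 ± 0.443%. The corresponding mRNA shares were 0.0487% and 1.28%. Another 2.32 ± 0.155% lay on 185 long non-coding RNA genes, of which 11 reached 100 CPM. The 15339 piRNA genes, whose short transcripts guide the Argonaute PRG-1, held 0.168 ± 0.0129% of these antisense reads.

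Most of the ncRNA share lay on genes whose span overlaps a ribosomal, transfer, small nucleolar or small nuclear RNA gene or a microRNA. These 460 genes held 9.57 ± 3.42% of antisense counts, against 1.49 ± 0.155% for the other 6245 ncRNA genes (SD, n = 3 each). The 3 most abundant antisense genes were 2 ncRNA genes and a ribosomal RNA gene. F31C3.14, which overlaps the ribosomal RNA gene rrn-3.1 on chromosome I, had 11822, 11826 and 50749 CPM in small RNA replicates 1, 2 and 3. F31C3.16, over a ribosomal RNA pseudogene, had 11174, 11455 and 50531 CPM. The 5S ribosomal RNA gene rrn-4.3 on chromosome V had 3947, 7997 and 46696 CPM. All 3 were highest in replicate 3, far above the other libraries. ZK783.8, over a transfer RNA gene, had 13473, 18455 and 5334 CPM, and was lowest in replicate 3. F16A11.6 overlaps mir-71 and had 11753, 9767 and 6278 CPM, and T09B4.14 overlaps mir-1 and had 9839, 8301 and 4129 CPM. The annotation used gives no strand, so a sense read of the overlapped RNA and an antisense read of the ncRNA gene cannot be told apart at these positions. By contrast linc-29, a long intergenic RNA gene on chromosome IV, positions 6354024 to 6357243 of WBcel235, overlaps no other RefSeq gene outside the piRNA genes. Overlap with piRNA genes was not checked. The gene linc-29 had 8519.5, 9405 and 8881 CPM of antisense small RNA against 0.9401 and 1.49 CPM of mRNA.

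In both assays few genes took a large share of the reads, and the 100 leading genes were mostly different genes. The 100 most abundant genes held 33.7 ± 4.63% of antisense counts (30.8%, 31.3% and 39.03% in replicates 1, 2 and 3) and 36.3 ± 0.709% of mRNA counts (36.8% and 35.8% in replicates 2 and 3). Any pair of small RNA libraries shared 88 to 94 of its 100 leading genes, and the 2 mRNA libraries shared 74. The leading 100 of the mean antisense level and of the mean mRNA level shared 1 gene, klp-16, a minus-end kinesin. Each 100 was taken from 46904 gene rows. Of the 1000 leading protein-coding genes by antisense level, 201 were also among the 1000 by mRNA level. Over all protein-coding genes with a read, 1000 of 18890 were among the 1000 by mRNA level, a smaller share. The antisense leaders, 63 of them protein-coding, had a median mRNA level of 1.25 CPM, and 46 of the 100 were under 1 CPM. This is near the level of all protein-coding genes with a read, with a median of 1.098 CPM and 9642 of 18890 at 1 CPM or more. The mRNA leaders, 90 of them protein-coding, had a median antisense level of 52.1 CPM, and 16 of the 100 were under 1 CPM. Over all protein-coding genes with a read the median antisense level was 0.886 CPM, and 9223 of 18890 had at least 1 CPM.

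The most abundant mRNA entry was rrn-3.1, with 45089 and 39077 CPM in replicates 2 and 3. Of the 9 protein-coding leaders, 5 encode proteins of translation. The elongation factor gene eef-2 had 149, 147 and 134 CPM of antisense small RNA against 14496 and 31179 CPM of mRNA. Its antisense level was even across libraries, whereas its mRNA level was higher in replicate 3. The elongation factor genes eef-1G and eef-1A.1 had mean antisense levels of 52.2 and 52.1 CPM, with 16356 and 13659.7 CPM of mRNA. In all 3 the mRNA level was far above the antisense level. The nucleoside diphosphate kinase gene ndk-1 averaged 16029.7 CPM of mRNA, clec-87, of the C-type lectin family, 13901 CPM, and the ribosomal protein gene rpl-12 11143 CPM. The poly(A)-binding protein gene pab-1 had 307, 259 and 269.7 CPM of antisense small RNA against 6905 and 13777 CPM of mRNA. The adenine nucleotide carrier gene ant-1.1 averaged 9989.5 CPM, and sip-1, which encodes a small heat shock protein, 8049 CPM. All 9 protein-coding leaders had antisense small RNA in each library, and their log2 ratios of antisense over mRNA lay between -8.74 and -5.21. Ratios are taken as CPM + 1 in both assays, which understates the contrast of low genes.

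Across the 18890 protein-coding genes, antisense level and mRNA level per kb correlated with a Spearman rho of 0.701. The 6 pairings of a small RNA and an mRNA library gave 0.671 to 0.706. This is a description across genes, which share libraries and are not independent replicates, and it carries no p-value. It was higher on chromosomes I, II and III (0.7305, 0.722 and 0.719) than on IV (0.692), V (0.622) or X (0.475). It was lower among genes with reads in both assays: with at least 1 CPM in both assays rho was 0.571, and with at least 10 CPM in both 0.522.

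**Figure D1:**
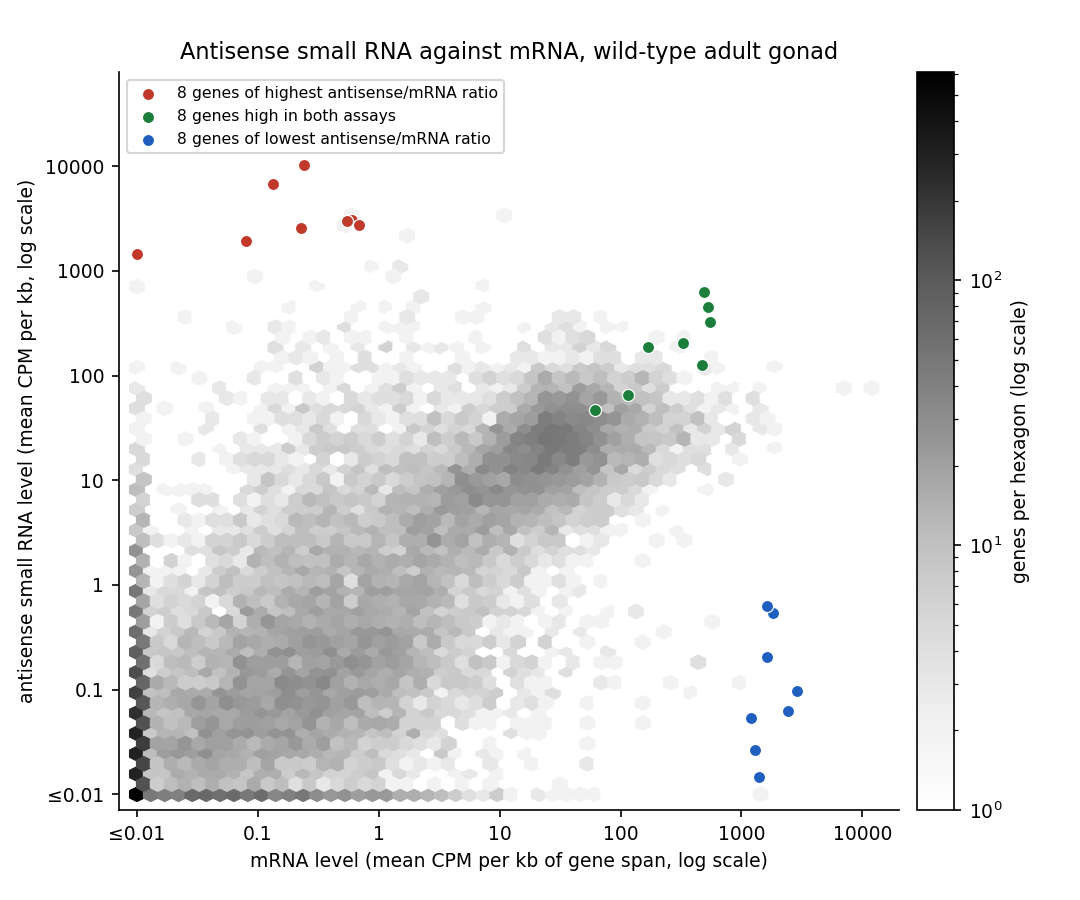
Mean antisense small RNA level (y axis, CPM per kb of gene span, log scale) against mean mRNA level (x axis, same unit) for 18890 protein-coding genes of wild-type gonads, shaded by the number of genes per hexagon, with levels of 0.01 or less drawn at 0.01. A main body of genes runs from low in both assays to about 30 CPM per kb in both, and the red, green and blue points are the 8 genes of highest ratio, of highest joint rank and of lowest ratio.

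The relation had a ceiling. Grouped by mRNA level, genes under 0.1 CPM per kb of mRNA had a median antisense level of 0.0438 CPM per kb, genes at 1 to 3 had 0.815, and genes at 3 to 10 had 4.43. Genes at 10 to 30 had 14.9 CPM per kb, those at 30 to 100 had 24.03, those at 100 to 300 had 29.4, and the 263 genes at 300 or more had 30.2. Above about 30 CPM per kb, more mRNA thus came with little more antisense small RNA at the median. Grouped by antisense level the other way, the order turned round at the top. The median mRNA level was 5.198 CPM per kb for genes with 3 to 10 CPM per kb of antisense small RNA, 20.2 at 10 to 30 and 32.01 at 30 to 100. It was 19.7 for the 361 genes at 100 to 300, and 1.66 for the 156 genes at 300 or more. Both mRNA libraries showed this turn, with 1.72 and 1.42 CPM per kb in the top group against 31.8 and 31.8 in the 30 to 100 group.

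**Figure D2:**
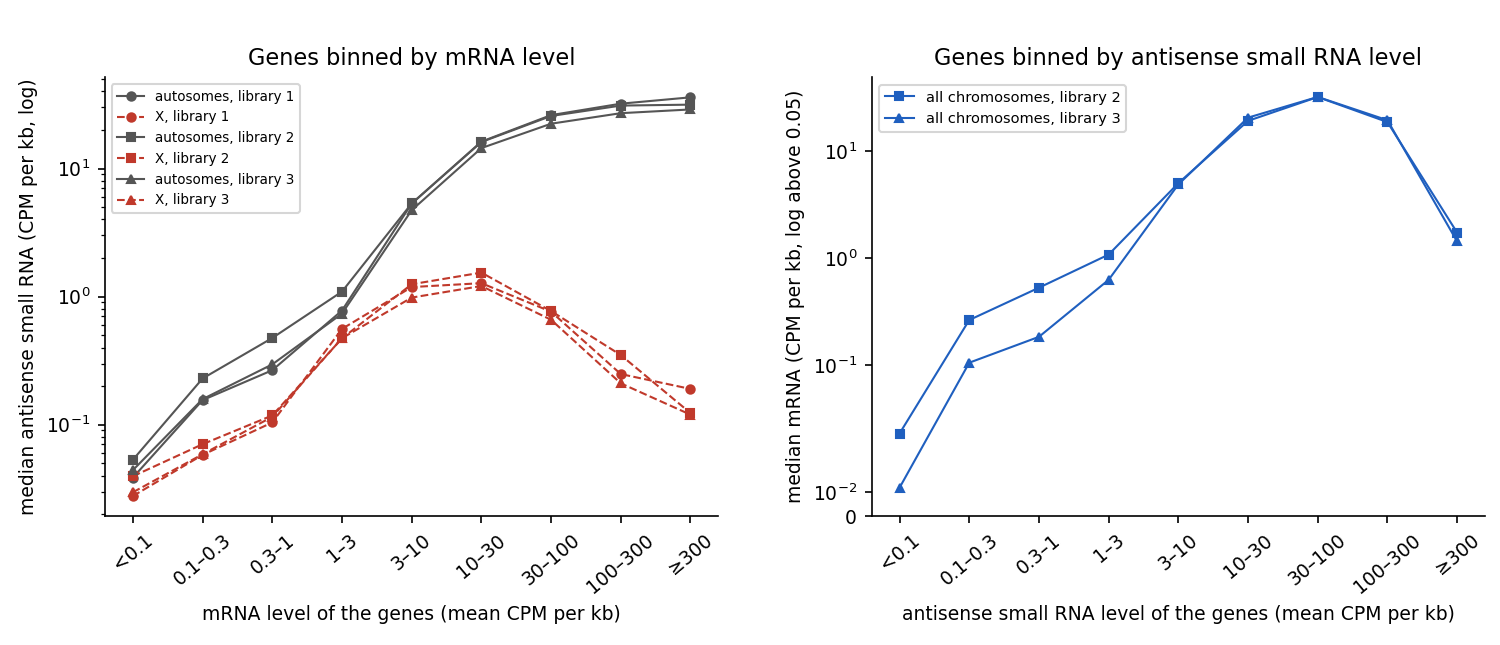
Left, median antisense small RNA level (CPM per kb, log scale) of genes grouped by mean mRNA level, for each of the 3 small RNA libraries, X-linked genes dashed in red and autosomal genes in grey. Right, median mRNA level (CPM per kb, log scale above 0.05) of genes grouped by mean antisense level, for each of the 2 mRNA libraries. The autosomal curves flatten above 30 CPM per kb, the X curves lie below them, and the right curves fall in the top 2 groups.

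A set of protein-coding genes had many antisense small RNAs and almost no mRNA. With limits of at least 100 CPM for antisense and under 1 CPM for mRNA, they numbered 187, and 144 of them met both limits in every library. Together they held 10.8% of antisense counts and 0.00737% of mRNA counts. Another 271 genes with 1 to 10 CPM of mRNA reached 100 CPM of antisense small RNA and held 14.4% of antisense counts. The 187 were 2.02% of the genes under 1 CPM of mRNA, and the 271 were 6.94% of those at 1 to 10 CPM. Over all protein-coding genes with a read, 8.75% reached 100 CPM of antisense small RNA, so both shares were below that of all genes. The limit is not a gap in the data: 13 genes of the set had 100 to 110 CPM, and 11 genes outside it had 90 to 100 CPM.

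The gene of highest ratio was B0250.8 on chromosome V, positions 20469894 to 20470485, with 6646, 6446 and 5278 CPM of antisense small RNA against 0.134 and 0.153 CPM of mRNA, a log2 ratio of 12.39. Next came Y71A12B.10 on chromosome I, with 6966, 6572 and 6022 CPM against 0.0448 and 0.498 CPM, and W09C5.12 on chromosome I, with 5231, 5826 and 5385 CPM against 0.179 and 0.0383 CPM. Over these 3 genes the lowest small RNA value was 5231 CPM and the highest mRNA value 0.498 CPM. The genes bath-45 and bath-20 encode proteins with BTB and MATH domains, and bath-45 is used as a reporter of germline silencing. The gene bath-45, on chromosome II, positions 13123020 to 13125189, had 7080.1, 6785 and 6239.5 CPM of antisense small RNA against 1.88 and 0.728 CPM of mRNA. The gene bath-20, on chromosome II, positions 2040276 to 2042547, had 6799, 6378 and 5421 CPM against 1.84 and 1.303 CPM. The gene fkb-8, of the FK506-binding protein family, had 5515, 4959.8 and 4660.0 CPM of antisense small RNA against 0.895 and 0.9199 CPM of mRNA. Y105E8A.28 averaged 3782 ± 637 CPM and 0.339 CPM. W04A8.9 averaged 2401 ± 391 CPM of antisense small RNA, and no mRNA read of it was counted in either library. The 3-read limit for that absence is 0.134 CPM in replicate 2 and 0.115 CPM in replicate 3. Of these 8 genes, Y71A12B.10 and W04A8.9 overlap an ncRNA gene and W09C5.12 a pseudogene.

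**Figure D3:**
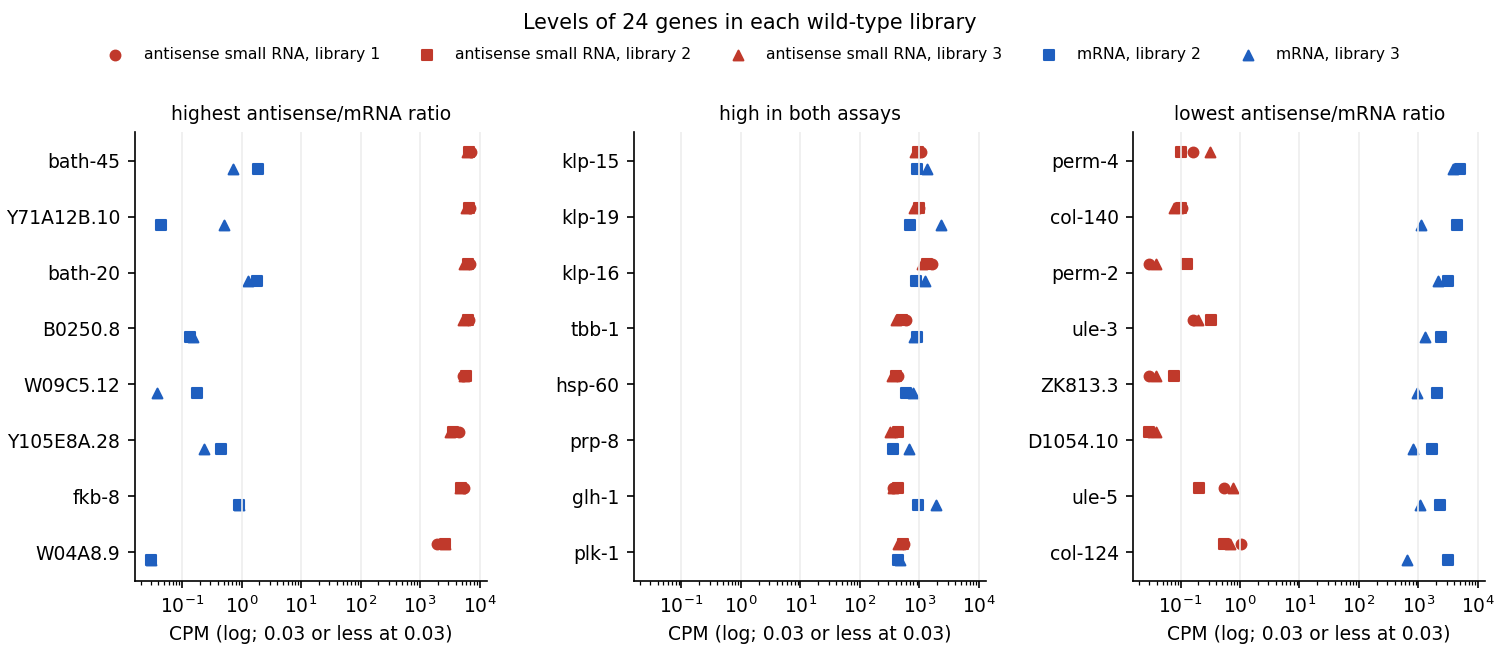
Levels of 24 genes in every wild-type library (CPM, log scale, values of 0.03 or less drawn at 0.03), antisense small RNA in red and mRNA in blue. The 8 genes of highest ratio keep the assays far apart in all libraries, the 8 genes high in both lie between 325 and 2289 CPM, and the 8 genes of lowest ratio are between 0 and 1.02 CPM in antisense small RNA.

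The 5 genes that serve in the literature as reporters of silencing small RNA pathways were all above 100 CPM of antisense small RNA. Beside bath-45, C38D9.2 had 1141, 1094 and 1120.0 CPM of antisense small RNA against 6.49 and 10.96 CPM of mRNA. K02E2.6, a target of the Argonaute ERGO-1, had 664, 804 and 654 CPM against 10.5 and 7.21 CPM. The X-linked sex determination switch gene xol-1 had 339.6, 214 and 214 CPM against 1.298 and 2.15 CPM. E01G4.5, another ERGO-1 target, had 439, 134 and 118 CPM, so that replicate 1 stood well above the others, against 24.5 and 23.99 CPM of mRNA. Their median levels were 244 CPM per kb of antisense small RNA and 1.901 CPM per kb of mRNA, against 0.393 and 0.454 CPM per kb over all protein-coding genes with a read.

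Of 92 gene families with at least 20 measured members, grouped by symbol, 41 had no member at 100 CPM of antisense small RNA. Over all protein-coding genes, 8.75% reached that level. The npp family of nucleoporins had the highest share, 15 of 26, and 20 of its genes reached 100 CPM of mRNA. The set family, of genes for SET-domain proteins, had 11 of 31, with 4 at 100 CPM of mRNA. The bath family had 11 of 34, with 2 at 100 CPM of mRNA. Its median levels were 20.2 CPM per kb of antisense small RNA and 4.94 CPM per kb of mRNA. In the fbxb family of F-box genes, 7 of 103 reached 100 CPM of antisense small RNA, led by fbxb-97 with 1384 CPM, while 94 were under 1 CPM of mRNA. Families of chemoreceptor genes, which act in sensory neurons, were low in both assays. In srh, 178 of 186 genes were under 1 CPM of antisense small RNA and 185 under 1 CPM of mRNA, and in str the counts were 164 and 169 of 170. Over all 18890 protein-coding genes with a read, 9223 had at least 1 CPM of antisense small RNA and 9642 at least 1 CPM of mRNA.

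At the other corner, 612 protein-coding genes had at least 100 CPM in both assays, 418 of them in every library. They held 14.5% of antisense counts and 23.5% of mRNA counts. Their median gene span was 3810.5 bp, against 2092 bp over all genes. On X lay 3 of them, or 0.4902%, against 13.7% of all genes. Over all protein-coding genes, 612 of 18890 were high in both assays. Gene families with several such members, picked after their values were seen, included 6 of 8 mcm genes, for the replicative helicase, 6 of 8 puf genes, for RNA-binding regulators of the germline, 6 of 13 klp kinesin genes and 7 of 13 rpn proteasome genes. The genes of best joint rank were klp-15, klp-19 and klp-16, kinesin genes of the spindle. The gene klp-16 had 1615, 1359 and 1111 CPM of antisense small RNA against 884 and 1271 CPM of mRNA. The gene klp-15, its near-identical copy, had 1086, 970.1 and 845 CPM against 901 and 1359 CPM, so that reads of the pair may have been shared. The chromokinesin gene klp-19 had 978, 1002 and 812 CPM against 712 and 2289 CPM, and its mRNA was higher in replicate 3. The others were tbb-1 (beta-tubulin, 505 ± 97.3 CPM of antisense small RNA), hsp-60 (mitochondrial chaperone, 396 ± 46.2 CPM), prp-8 (splicing factor, 388 ± 56.2 CPM), glh-1 (germ granule helicase, 388 ± 48.6 CPM) and plk-1 (polo-like kinase, 507 ± 63.004 CPM). Their mean mRNA levels were 854, 695, 515, 1438 and 457 CPM in the same order.

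Abundant mRNA without antisense small RNA was rare over all chromosomes together, but less so on X. Of the genes with at least 100 CPM of mRNA, 88 had under 1 CPM of antisense small RNA, which is 4.74%, and 57 did so in every library. Families with several such members, picked after their values were seen, included 19 of 152 col genes and 3 of 5 ule genes. The name ule stands for uterine lumen expressed. Of the cpr genes, which encode cysteine proteases, 3 of 8 were among them. Over all protein-coding genes, 88 of 18890 met both limits. Of the 88 genes, 27 lay on X, or 30.7%, against 13.7% of all genes. Among genes with at least 100 CPM of mRNA, X held 13 of the 79 with 1 to 10 CPM of antisense small RNA. It held 13 of the 1078 with 10 to 100 CPM and 3 of the 612 with at least 100 CPM. The lowest ratio was that of perm-4, a gene of the eggshell permeability barrier on chromosome IV, positions 1121494 to 1125107, with 0.161, 0.102 and 0.315 CPM of antisense small RNA against 4922 and 3766 CPM of mRNA, a log2 ratio of -11.83. Its neighbour perm-2, on chromosome IV, positions 1126790 to 1128865, had 0, 0.127 and 0.0394 CPM against 3191 and 2129.8 CPM. The collagen genes col-140 and col-124 had mean antisense levels of 0.0959 and 0.741 CPM, against 4503 and 1089.7 CPM of mRNA in the first and 3129 and 648 CPM in the second. Both were much higher in mRNA replicate 2. The genes ule-3 and ule-5 had antisense means of 0.2295 and 0.496 CPM, against 2404 and 1291 CPM of mRNA in ule-3 and 2269 and 1075 CPM in ule-5. ZK813.3 on X and D1054.10 on chromosome V had antisense means of 0.0386 and 0.0131 CPM, against 2033 and 947 CPM of mRNA in ZK813.3 and 1717 and 804 CPM in D1054.10. All 8 genes were higher in mRNA replicate 2 than in replicate 3, and in replicate 3 the lowest, col-124, still had 648 CPM. Of the 8 genes, perm-2 and col-124 overlap another protein-coding gene. Mitochondrial transcripts, which stay inside the organelle, also had next to no antisense small RNA. The 3 mitochondrial genes matched by name, chosen after their values were seen, were ND6, with 0.0828 CPM of antisense small RNA and 861 CPM of mRNA, ND1, with 0.357 and 458 CPM, and COX3, with 0.3601 and 258 CPM.

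Genes of the small RNA pathway itself carried antisense small RNAs. The 20 Argonaute genes measured had medians of 9.42 CPM per kb of antisense small RNA and 8.53 CPM per kb of mRNA. Of these, 8 had at least 100 CPM of antisense small RNA and 8 at least 100 CPM of mRNA, beside 8.75% and 9.83% of all protein-coding genes. Per kb, the highest antisense level was that of prg-1, the piRNA Argonaute, with 287 CPM per kb against 142 CPM per kb of mRNA. The nuclear Argonaute gene hrde-1 followed, with 234 and 90.03 CPM per kb, and then wago-4 (163 and 72.3), csr-1 (153 and 86.5) and ppw-2 (152 and 60.02). The gene csr-1 had 826, 827 and 592 CPM of antisense small RNA against 381 and 465 CPM of mRNA, and hrde-1 945, 933 and 801 CPM against 278 and 411 CPM. In wago-1 the order was the other way, with 177, 195 and 149.6 CPM of antisense small RNA against 825 and 1177 CPM of mRNA. Argonaute genes with under 1 CPM of antisense small RNA were wago-5, wago-10 and alg-4, at 0.957, 0.471 and 0.921 CPM, with 0.0415, 1.61 and 5.08 CPM of mRNA. The spermatogenic Argonaute genes alg-3 and alg-4 were low in both assays. The gene alg-3 had 1.18, 3.23 and 1.93 CPM of antisense small RNA against 7.61 and 1.61 CPM of mRNA, and alg-4 0.215, 2.04 and 0.512 CPM against 8.59 and 1.57 CPM, both higher in mRNA replicate 2.

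All 28 genes of small RNA synthesis measured had antisense small RNA, from 15.99 CPM in eri-5 to 722 CPM in parn-1, and 17 had at least 100 CPM, beside 8.75% of all protein-coding genes. Over the 27 with a span, their medians were 32.2 CPM per kb of antisense small RNA and 21.5 CPM per kb of mRNA, and in 19 of the 28 the antisense level exceeded the mRNA level. Over all protein-coding genes this was so in 9827 of 18890. The gene of the germline polymerase EGO-1 had 364, 429.9 and 351 CPM of antisense small RNA against 109 and 213 CPM of mRNA. The polymerase genes rrf-1 and rrf-3 had means of 265 and 199 CPM of antisense small RNA, with 63.9 and 141 CPM of mRNA. Their relative rrf-2 had 116 and 3.98 CPM. The largest contrast was in parn-1, whose nuclease trims piRNAs and which overlaps the gene frpr-15, with 777, 691 and 699 CPM of antisense small RNA against 16.7 and 18.2 CPM of mRNA. The mutator genes differed in order. Antisense small RNA exceeded mRNA in mut-7, with 360.4 and 89.8 CPM, and in mut-14, with 299 and 34.4 CPM, but not in mut-15, with 215 and 590.1 CPM. The gene rde-10, which acts with rde-11 in the amplification of RNAi, had 24.4 CPM of antisense small RNA and 419.6 CPM of mRNA. The Dicer gene dcr-1 had 179, 174 and 141 CPM against 94.2 and 199 CPM.

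The 18 germ granule genes measured had median levels of 60.1 CPM per kb of antisense small RNA and 62.8 CPM per kb of mRNA. The Z granule helicase gene znfx-1 had 758, 821 and 711 CPM of antisense small RNA against 17.8 and 38.6 CPM of mRNA. The Vasa-like helicase genes differed from each other. The gene glh-4 had 889.8, 952 and 828 CPM of antisense small RNA against 70.8 and 131 CPM of mRNA, whereas glh-1 had 356, 444 and 364 CPM against 965 and 1911 CPM. On the CPM scale, antisense small RNA thus exceeded mRNA in glh-4 and not in glh-1. The P granule scaffold genes pgl-1 and pgl-3 had 351 ± 46.4 and 230.2 ± 30.4 CPM of antisense small RNA, with 426 and 259 CPM of mRNA. The RNA helicase gene cgh-1 had 219, 147 and 107 CPM of antisense small RNA against 2869 and 3796 CPM of mRNA. The 4 meg genes, all X-linked, were lower, with 2.41 CPM per kb of antisense small RNA in meg-2, 4.67 in meg-1, 5.75 in meg-3 and 15.9 in meg-4. Of 16 genes of nuclear RNAi and chromatin silencing, 13 had more antisense small RNA than mRNA on the CPM scale, beside 9827 of 18890 over all protein-coding genes, with medians of 30.4 and 14.8 CPM per kb. The widest contrast was in nrde-2, which acts with nuclear Argonautes, with 995, 965 and 749.9 CPM against 57.5 and 108 CPM. The histone methyltransferase gene met-2 had 375, 413 and 351 CPM against 104 and 189 CPM, and the Polycomb gene mes-6, which overlaps another protein-coding gene, 89.6, 82.6 and 62.5 CPM against 301 and 512 CPM.

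The medians of the following germline lists differed less in antisense level than in mRNA level. The 30 oocyte and eggshell genes had medians of 33.2 CPM per kb of antisense small RNA and 369.9 CPM per kb of mRNA. Single genes of this list differed more in antisense level, from 0.0555 CPM in perm-2 to 514 CPM in egg-5. Their mRNA ran from 90.2 to 5892 CPM. For 30 meiosis genes the medians were 30.9 and 34.1 CPM per kb, for 30 DNA replication and cell cycle genes 39.99 and 95.1, and for 26 regulators of germline stem cells and sex 19.6 and 42.8. All of these medians lay above the 0.393 and 0.454 CPM per kb of all protein-coding genes. In 28 of the 30 oocyte and eggshell genes mRNA exceeded antisense small RNA on the CPM scale, beside 9063 of 18890 over all protein-coding genes. The yolk receptor gene rme-2 had 392.2, 366 and 285 CPM of antisense small RNA against 3897 and 7887 CPM of mRNA, the eggshell proteoglycan gene cpg-1 123, 114 and 74.4 CPM against 2719.8 and 2748 CPM, and cpg-3 15.5, 11.4 and 7.48 CPM against 4728 and 3636 CPM. In each of these genes the CPM of mRNA was many times that of antisense small RNA. The maturation regulators oma-1 and oma-2 had 29.99 ± 4.07 and 29.3 ± 7.25 CPM of antisense small RNA, with 455 and 611 CPM of mRNA. The pseudophosphatase genes egg-4 and egg-5, which are near-identical, were the exceptions. The gene egg-5 had 563, 540.4 and 438 CPM of antisense small RNA against 93.2 and 109 CPM of mRNA.

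Among meiosis genes, 17 of 30 had more antisense small RNA than mRNA on the CPM scale, a share near the 9827 of 18890 of all protein-coding genes. The axis protein gene htp-1 had 485, 491 and 381 CPM of antisense small RNA against 113 and 90.5 CPM of mRNA, and the checkpoint kinase gene chk-2 379.6, 379 and 309.7 CPM against 12.04 and 12.5 CPM. In spo-11, for the enzyme that makes meiotic DNA breaks, the order was the other way, with 14.1, 17.6 and 15.1 CPM of antisense small RNA against 233 and 308 CPM of mRNA. The gene spo-11 overlaps the protein-coding gene enpl-1, and chk-2 an ncRNA gene, so their levels are uncertain. The synaptonemal complex gene syp-1 had 88.3 CPM of antisense small RNA and 36.6 CPM of mRNA, and syp-2 32.2 and 166. The highest antisense level among replication and cell cycle genes was that of the topoisomerase II gene top-2, with 1246, 1292 and 1132 CPM of antisense small RNA against 231 and 413 CPM of mRNA. The helicase subunit gene mcm-7 had 313, 312 and 255 CPM against 456 and 608 CPM, and the cyclin B gene cyb-3 had 81.7, 74.3 and 55.8 CPM against 759.7 and 686 CPM. The germline Notch receptor gene glp-1 had 143, 153 and 140.3 CPM of antisense small RNA against 137 and 268 CPM of mRNA. The translational repressor genes gld-1 and fbf-1 had 114 ± 13.3 and 168 ± 27.6 CPM of antisense small RNA, with 344 and 299.9 CPM of mRNA. Both repressors had the higher CPM in mRNA, and fbf-1 may share reads with its near-identical copy fbf-2. The spermatogenesis switch gene fog-3 was near the bottom in both assays, with 1.47 and 1.34 CPM.

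Housekeeping genes differed by kind. Ribosomal protein genes had a median of 32.8 CPM per kb of antisense small RNA, close to that of meiosis genes, and 887 CPM per kb of mRNA, over the 61 of 81 with a span. In 79 of the 81 mRNA exceeded antisense small RNA on the CPM scale, beside 9063 of 18890 over all protein-coding genes. The exceptions were rpl-24.2, with 60.8 CPM of antisense small RNA and 26.6 CPM of mRNA, and rpl-42, with 3.32 and 0.5499 CPM. The 33 proteasome genes had medians of 52.1 and 164 CPM per kb. In 31 of them, all but rpn-11 and rpn-6.2, mRNA exceeded antisense small RNA on the CPM scale, beside the same 9063 of 18890. The deubiquitinase subunit gene rpn-11 had 353, 333 and 306 CPM of antisense small RNA against 157 and 146 CPM of mRNA. Histone genes stood the other way, with 46.6 CPM per kb of antisense small RNA and 7.44 CPM per kb of mRNA over the 36 of 72 with a span. Histone genes have near-identical copies, and their mRNAs mostly lack poly(A) tails. The small RNA table lists 0 reads aligned to more than 1 place, whereas in mRNA such reads, 10.3% to 12.1% of the total, are in no gene's count, so histone ratios are uncertain. The X-linked linker histone gene his-24, on chromosome X, positions 14490094 to 14491119, had 1899, 2181 and 2179 CPM of antisense small RNA against 7.52 and 3.99 CPM of mRNA.

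Sperm genes differed between batches in both assays. The 31 major sperm protein genes, whose products move sperm and signal to oocytes, summed to 18.1, 51.6 and 22.6 CPM of antisense small RNA in replicates 1, 2 and 3, and to 1208 and 65.96 CPM of mRNA in replicates 2 and 3. Replicate 2 was thus the highest in both assays. Another 33 sperm genes summed to 198, 243 and 208 CPM of antisense small RNA and 459 and 231 CPM of mRNA, again highest in replicate 2. Median levels were 2.44 CPM per kb of antisense small RNA and 43.2 CPM per kb of mRNA for major sperm protein genes, and 0.612 and 0.789 for the other list, against 0.393 and 0.454 over all protein-coding genes. The mRNA medians differed between libraries. That of major sperm protein genes was 82.9 CPM per kb in replicate 2 and 4.39 in replicate 3, and that of the other list 1.12 and 0.261, against 0.591 and 0.276 over all protein-coding genes. No gene of either list averaged 100 CPM in either assay. The gene msp-45 had 0.322, 0.8903 and 1.103 CPM of antisense small RNA against 107 and 4.94 CPM of mRNA, and gsp-4, a sperm phosphatase gene, 0.161, 0.712 and 0.197 CPM against 25.6 and 0.882 CPM. Copies of the family are near-identical, so values of single genes are uncertain.

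The intestine and muscle lists had mRNA with little antisense small RNA. At the median, coelomocyte, neuron and collagen genes were low in both assays. All 25 intestine genes had a higher CPM in mRNA than in antisense small RNA, beside 9063 of 18890 over all protein-coding genes. Their medians were 0.161 CPM per kb of antisense small RNA and 15.3 CPM per kb of mRNA. Their antisense small RNA summed to 44.1, 38.3 and 23.7 CPM. The yolk protein gene vit-2 had 6.87, 5.01 and 2.52 CPM of antisense small RNA against 1753 and 1297 CPM of mRNA, and the cathepsin gene cpr-6 0.376, 0.534 and 0.591 CPM against 1206 and 220.0 CPM. For 25 muscle and sheath genes the medians were 0.0814 and 12.7 CPM per kb. The troponin C gene pat-10 had 0.0537, 0.153 and 0.0788 CPM of antisense small RNA against 972 and 248 CPM of mRNA, and the myosin light chain gene mlc-3 0.215, 0.127 and 0.118 CPM against 385 and 116 CPM. An exception was the body wall myosin heavy chain gene unc-54, with 167, 204 and 174 CPM of antisense small RNA against 128 and 102 CPM of mRNA. The defining intestine regulator elt-2 had 1.43 and 0.192 CPM of mRNA and the sheath marker lim-7 4.61 and 4.75 CPM. For 25 neuron genes the medians were 0.252 and 0.1799 CPM per kb. Of these, 13 of 25 were higher in antisense small RNA on the CPM scale, a share near the 9827 of 18890 of all protein-coding genes. For 3 coelomocyte genes the medians were 0.0484 and 0.467 CPM per kb. Collagen genes had medians of 0.0753 and 0.225 CPM per kb. Of the 156, 23 had at least 1 CPM of antisense small RNA, beside 9223 of 18890 protein-coding genes. The antisense level exceeded the mRNA level in 67 collagen genes and was below it in 85, beside 9827 and 9063 of all 18890 protein-coding genes. At the top, 4 collagen genes had at least 100 CPM of antisense small RNA, the highest being col-71, with 969, 1035 and 1050.3 CPM of antisense small RNA against 4.57 and 5.48 CPM of mRNA. The part that the amount of somatic tissue in each sample plays in these values was not tested.

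**Figure D4:**
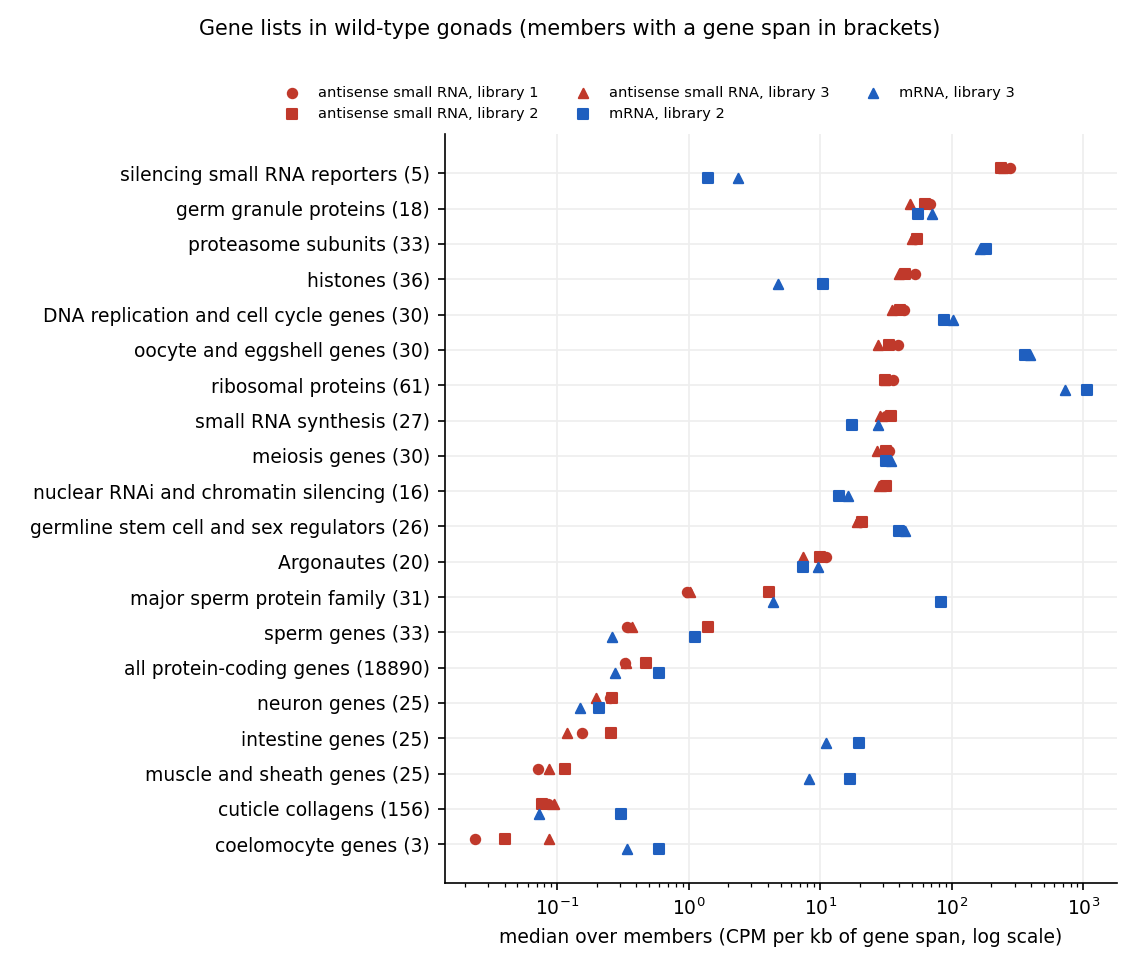
Median level over the members of each gene list (CPM per kb of gene span, log scale) in each wild-type library, antisense small RNA in red and mRNA in blue, with the number of members that have a span in brackets and lists ordered by antisense level. Germline and housekeeping lists other than those of sperm lie between 9.42 and 60.1 CPM per kb of antisense small RNA on the mean over libraries, whatever their mRNA level, and the somatic lists lie below 1 CPM per kb of antisense small RNA with up to 15.3 CPM per kb of mRNA.

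X-linked genes had less antisense small RNA than autosomal genes. The median X-linked gene over the median autosomal gene was 0.185, 0.155 and 0.188 in small RNA replicates 1, 2 and 3, and 0.356 and 0.503 in mRNA replicates 2 and 3. All 3 small RNA libraries lay below both mRNA libraries. The medians behind these ratios are low, 0.0855 to 0.106 CPM per kb for X and 0.463 to 0.686 for autosomes in antisense small RNA. By chromosome, the median antisense level was 3.41 CPM per kb on I and 4.35 on III, 0.628 on II and 0.483 on IV, and 0.105 on V and 0.0948 on X. The median mRNA level was 1.94 CPM per kb on I, 2.196 on III, 0.471 on II, 0.639 on IV, 0.118 on V and 0.214 on X. Most genes on V and X are near 0 in both assays. Over genes with at least 1 CPM of mRNA, the median antisense level was 0.407 CPM per kb on X, 3.59 on V and 6.83 to 11.8 on the other chromosomes. The median mRNA level of these genes was 1.98 CPM per kb on X, 5.75 on V and 8.96 to 11.6 on the others, so that X was the lowest in both assays.

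At matched mRNA level the X-linked median was lower in all groups, and the distance was widest among genes with much mRNA. Under 0.1 CPM per kb of mRNA the median antisense level was 0.0342 CPM per kb for 1038 X-linked genes and 0.0464 for 5252 autosomal genes. At 0.1 to 0.3 it was 0.0649 for 382 X-linked genes and 0.194 for 1870 autosomal genes, and at 0.3 to 1 it was 0.119 for 380 and 0.355 for 2033. At 1 to 3 it was 0.512 for 355 X-linked genes and 0.895 for 1512 autosomal genes, and at 3 to 10 it was 1.23 for 245 and 5.101 for 1500. These 5 groups hold most X-linked genes, and in both sets the median antisense level was higher with more mRNA. From 10 CPM per kb of mRNA the autosomal medians were still higher with more mRNA, while the X-linked ones were highest at 10 to 30 and lower beyond. Among genes with 10 to 30 CPM per kb of mRNA, the median antisense level was 1.33 CPM per kb for 103 X-linked genes and 15.7 CPM per kb for 1805 autosomal genes. At 30 to 100 it was 0.666 CPM per kb for 51 X-linked genes and 24.9 for 1571 autosomal genes. At 100 to 300 it was 0.269 for 14 X-linked genes and 30.2 for 516 autosomal genes. At 300 or more it was 0.174 for 19 X-linked genes and 32.7 for 241 autosomal genes. In these last 4 groups every small RNA library gave X-linked medians below the autosomal ones. At 10 CPM per kb of mRNA or more, 96 of 187 X-linked genes had under 1 CPM per kb of antisense small RNA, or 51.3%, against 244 of 4133 autosomal genes, or 5.904%. Somatic genes are among these X-linked genes: 17 of the 187 are on the somatic lists, such as vit-2 and act-4. Without listed somatic genes the median antisense level was 1.09 CPM per kb on X and 21.7 on autosomes. The lists hold only part of the genes that somatic cells express, and the part these cells play in the X values was not tested.

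The X-linked members of the 8 small RNA and germline lists were nrde-3, alg-1, meg-1, meg-2, meg-3, meg-4 and lin-15B. These 7 genes had a median antisense level of 4.67 CPM per kb and a median mRNA level of 7.93 CPM per kb, against 32.5 and 45.2 CPM per kb for the 190 autosomal genes. The X-linked medians were 5.74, 4.72 and 3.56 CPM per kb in the 3 small RNA libraries, and the autosomal ones 34.7, 33.4 and 28.8. High antisense levels did occur on X. The transaminase gene got-1.2, on chromosome X, positions 16791347 to 16793126, had 5074, 4417 and 4055 CPM of antisense small RNA against 5.28 and 4.83 CPM of mRNA. The polyketide synthase gene pks-1 had 1789.5, 1778 and 1487 CPM against 1.701 and 2.03 CPM, over a span of 28152 bp. F02C12.3 had 1371, 1462 and 1653 CPM against 0.0895 and 0.268 CPM.

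The wild-type pattern was set beside the same summary values in cup-4 gonads, as the strains are what the study compared. The gene cup-4 itself had 1.08, 1.25 and 0.827 CPM of mRNA in cup-4 replicates 1, 2 and 3, and 5.24 and 3.26 CPM in wild-type replicates 2 and 3. These values rest on 20 to 37 reads in cup-4 and 85 to 117 reads in wild type, and their difference was not tested. The 4 differences are given as cup-4 minus wild type, with two-sided exact permutation tests and Benjamini-Hochberg adjustment over the 4. X-linked genes took 6.04%, 6.23% and 6.13% of antisense counts in cup-4 replicates 1, 2 and 3, and 5.26%, 5.37% and 4.95% in wild-type replicates 1, 2 and 3. All 3 cup-4 libraries lay above the 3 wild-type libraries, with means of 6.13 ± 0.0942% and 5.19 ± 0.217% (SD, n = 3 each). The exact p was 0.1, the smallest this design can give, and the adjusted p was 0.4, so the difference did not pass the test. The rank correlation of antisense small RNA and mRNA, taken within each batch, was 0.656, 0.675 and 0.686 in cup-4 and 0.6998 and 0.712 in wild type. The cup-4 values all lay below the wild-type ones, with an exact p of 0.2, where this design can give 0.1, and an adjusted p of 0.4. The share of gene rows without a symbol was 10.2 ± 0.155% in cup-4 and 9.99 ± 0.443% in wild type (exact p of 0.6, adjusted p of 0.8, n = 3 each). The share of the 100 most abundant genes was 32.7 ± 1.898% in cup-4 and 33.7 ± 4.63% in wild type (exact p of 0.8, adjusted p of 0.8, n = 3 each). These 2 differences, 0.219 and -1.02 percentage points, changed sign without wild-type replicate 3, to -0.0333 and 1.65 percentage points.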

How the data were processed

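Small RNA and mRNA of wild-type (N2) gonads were analysed, with cup-4 gonads for comparison. Per the labels, extraction was by Trizol and chloroform, and libraries were made with NEBNext kits, the mRNA kit being directional. The meaning of TAP in the names of the small RNA columns is not given in the sources used here. The authors deposited raw read counts per gene for 46904 gene rows, not normalized, with replicates kept apart. Per the submitters' processing notes, FastQC, cutadapt, HISAT2, HTSeq, DESeq2 and the build ce11 were used. Roles, versions, the annotation, read-length filters and the use of strand for mRNA counts are not given in the sources used here, so overlapping genes are uncertain in mRNA. The 5 summary rows of each table, 43.99% to 45.6% of reads in small RNA libraries and 20.3% to 23.8% in mRNA libraries, stayed out of totals. A replicate 1 of wild-type mRNA was not analysed here.

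From the deposited counts, CPM were computed per library on total gene counts and averaged per assay, with Python 3.11.15, pandas 2.3.3 and SciPy 1.17.1. Symbols were matched for 44017 rows, and gene type, chromosome and span for 42395 rows from RefSeq (WBcel235, the assembly that ce11 names). Exon lengths were planned but not used here, so levels per kb use the gene span with introns. No sequences are shown. Genes to name were set by rule as the 10 most abundant per assay and the 8 protein-coding genes at each end of the antisense over mRNA ratio. The 8 of best joint rank and the 5 most variable per assay followed. So did the members highest and lowest in each gene list, and the members of the Argonaute, synthesis and germ granule lists. Not all of these genes are named in the text. Other list members and the X-linked, mitochondrial and family genes named were added after their values were seen. The 20 lists, one of which (12 mitochondrial names) matched no row, give counts and medians with no test. The members and lists were chosen with earlier results of these data known. The design text calls the samples biological replicates and does not say how the cultures were separated. Per the labels, a replicate number marks a batch, which pairs the strains. Comparisons with cup-4 used exact permutation tests over libraries. The functions were checked on simulated counts. Alternatives were per-kb against CPM levels, TMM factors (edgeR 4.0.16, R 4.3.3), filters, gene types, left-out libraries and a replicate block. Limits from a count of 0 are 3 reads and cover counting error only.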

Additional observations from a re-analysis of the deposited data

How the results depend on the processing

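The rank correlation of antisense small RNA and mRNA across genes (0.701) was positive under every setting run. It was 0.729 on CPM without gene span, 0.602 with at least 1 CPM of mRNA, 0.571 with at least 1 CPM in both assays, 0.522 with at least 10 CPM in both, 0.399 over all gene types, and 0.676 to 0.702 with each library left out. The ratio of X-linked to autosomal medians of antisense small RNA (0.176) was 0.219 on CPM, 0.04703 for genes with at least 1 CPM of mRNA, and 0.1596 to 0.166 with each library left out, where the filter on a read also keeps fewer genes. That of mRNA (0.4299) was 0.364 to 0.504. The 100 leading genes held 25.4% of antisense counts and 33.9% of mRNA counts with protein-coding genes alone, and 31.02 to 35.2% and 35.8 to 36.8% with each library left out. The count of genes with high antisense and low mRNA levels (187) was 175 to 211 with each library left out. With the same limits set on CPM per kb it was 152.

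Against wild type, leaving out each library gave cup-4 minus wild-type differences of -0.04004 to -0.0252 in rank correlation, 0.817 to 1.03 percentage points on X, -0.0333 to 0.3803 on rows without a symbol and -2.49 to 1.65 in the 100 leading genes. The last 2 changed sign without wild-type replicate 3, to -0.0333 and 1.65. The labels give the replicate number as the batch. With the replicate block, the differences were -0.0252 in rank correlation over 2 batches, 0.938 on X, 0.219 on rows without a symbol and -1.02 in the leading genes, with exact p of 0.5, 0.25, 0.75 and 1 in that order. None of the 4 passed the threshold under either fit, and the smallest p of each design is above it. A planned share of counts on pseudogenes was not run, because 2 rows matched a pseudogene; the rows without a symbol were taken in its place after the data were seen, as was rank correlation with gene span held constant (0.709). Genes under about 0.1 CPM rest on a few reads, and their order in either assay is uncertain.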

Other observations

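Gene rows without a symbol were among the most abundant in both assays. The row WBGene00014884 had 5155, 6363 and 5817 CPM of antisense small RNA against 0.448 and 1.15 CPM of mRNA, and WBGene00009511 had 5709.9, 5910.1 and 5224 CPM against 0.269 and 0 CPM. In contrast, WBGene00010964 had 0.429, 0.5596 and 0.354 CPM of antisense small RNA against 3785 and 4117 CPM of mRNA, and WBGene00010965 had 0, 0.102 and 0 CPM against 1821 and 1343 CPM. Of the 2887 rows without a symbol, 119 had at least 100 CPM of antisense small RNA, and 20 of the 100 leading antisense rows were of this kind.

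Among protein-coding genes with at least 10 CPM of mRNA, those with longer spans had a higher ratio of antisense small RNA to mRNA. The median log2 ratio was -1.31 for 1485 genes under 1500 bp, -1.13 for 1843 genes from 1500 to 3000 bp, -0.41 for 1404 genes from 3000 to 6000 bp and -0.07 for 1007 genes of 6000 bp or more. The median antisense level was 21.8, 40.3, 57.6 and 63.1 CPM in these groups, and the median mRNA level 44.05, 66.9, 69.05 and 62.4 CPM. This is a description across genes of the 5 libraries, with no test.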
